A study of Saccharomyces cerevisiae with 9 samples.

Results

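Phospholipid flippases and the proteins that serve them were followed in Saccharomyces cerevisiae strains with deletions in phospholipid synthesis. The strains lack part of the CDP-ethanolamine and CDP-choline route to phosphatidylethanolamine and phosphatidylcholine. Their sample labels name no deletion in any other route to these lipids. The set holds 9 of the 7122 genes in the table and was chosen by gene symbol: the P4-ATPases DRS2, DNF1, DNF2, DNF3 and NEO1, the subunits CDC50 and LEM3, and the kinases FPK1 and KIN82. All 9 were found under these symbols and all 9 passed the filter on low counts. Polyadenylated RNA was sequenced from prototrophic yeast of the CEN.PK background harvested in log phase from synthetic minimal medium holding 2% glucose, in 3 groups of 3 libraries. The ect1Δ pct1Δ strain lacks ECT1 and PCT1, which make CDP-ethanolamine and CDP-choline. The cpt1Δ ept1Δ strain lacks CPT1 and EPT1, which join these compounds to diacylglycerol. The wild type (WT) keeps all 4 genes. The labels do not state whether a group's libraries are separate cultures or clones. The p-values therefore reflect variation among the libraries, part or all of which may be technical.

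Flippases use ATP to move phospholipids from the outer or lumenal leaflet of a membrane to the cytosolic leaflet. In yeast they keep phosphatidylserine and phosphatidylethanolamine on the cytosolic side of the plasma membrane and of late Golgi and endosomal membranes, and they help form transport vesicles. Most P4-ATPases leave the endoplasmic reticulum and work only when paired with a subunit of the Cdc50 family: Drs2 pairs with Cdc50, Dnf1 and Dnf2 pair with Lem3, and Dnf3 pairs with the product of YNR048W. Neo1 works without such a subunit. The related kinases Fpk1 and Kin82 phosphorylate and activate Dnf1 and Dnf2. The comparison asks whether RNA levels of this machinery differ once the cell can no longer make its main aminophospholipid through CDP-ethanolamine.

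The P4-ATPases share the catalytic site at which the enzyme takes a phosphate from ATP. The codons of that site are shown to place the family members beside one another, read 5′ to 3′ along each gene in the RefSeq genome of build R64. Capitals mark the 21 bases that encode the phosphorylation motif, which a translation of each reading frame found once per gene.
DRS2, chrI:97988-98032, minus strand: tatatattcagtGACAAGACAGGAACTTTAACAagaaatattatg
DNF1, chrV:514730-514774, plus strand: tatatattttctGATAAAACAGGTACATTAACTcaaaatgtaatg
DNF2, chrIV:633403-633447, plus strand: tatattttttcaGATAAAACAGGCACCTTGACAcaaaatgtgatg
DNF3, chrXIII:582194-582238, minus strand: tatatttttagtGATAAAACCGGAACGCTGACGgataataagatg
NEO1, chrIX:262931-262975, plus strand: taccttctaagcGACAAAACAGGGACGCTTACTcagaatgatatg
All 5 stretches encode the same motif with different codons. Of the 21 bases, DNF2 shares 17 with DNF1, DRS2 and NEO1 share 16 each, and DNF3 shares 15.

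Paralogs in the set share only short identical runs of bases in the RefSeq genome. Over their whole coding sequences DNF1 and DNF2 were 71.0% identical across 4649 aligned bases, and FPK1 and KIN82 were 71.4% identical across 2100. The longest identical runs are shown in capitals because they set how far a perfect match to both genes could run.
DNF1 and DNF2 share 23 bases, here in DNF1 at chrV:514049-514071, plus strand: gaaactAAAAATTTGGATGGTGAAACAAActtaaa
FPK1 and KIN82 share 31 bases, here in FPK1 at chrXIV:710219-710249, plus strand: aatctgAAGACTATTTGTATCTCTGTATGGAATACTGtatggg
No stretch of 50 bases from any of the 9 coding sequences occurred a further time in the nuclear genome. Matches with mismatches, the read length and differences of CEN.PK from the RefSeq genome were not examined.

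Library totals lay between 5669951 and 11793688 counts. The deleted genes stood at 0 to 0.74 FPKM (counts scaled to gene length and library total) in the strains that lack them and at 100.6 to 200.7 FPKM elsewhere. The design text of the series speaks of a knockout of PAH1 and DGK1, unlike the sample labels, but these genes were expressed in all 9 libraries, at 17.4 to 22.6 and 118.8 to 128.7 FPKM. In a principal component analysis the leading component held 23.0% of the variance; WT replicate 3 (13.0) and ect1Δ pct1Δ replicate 2 (7.33) had its highest scores and ect1Δ pct1Δ replicate 1 (-9.66) its lowest, with the other 6 libraries between -4.80 and 3.81. Of 13 markers of stationary phase, mating type and meiosis 0 were called by edgeR in the fit of all libraries. In ect1Δ pct1Δ against WT, cpt1Δ ept1Δ against WT and between the deletion strains 4, 2 and 1 had an unadjusted p below 0.05. Of all tested genes 6.61%, 5.28% and 4.72% did. None of the 13 was at 0 throughout. Their summed level was 4793 to 5090 FPKM in ect1Δ pct1Δ, 4940 to 5344 in cpt1Δ ept1Δ and 4368 to 5247 in WT. Most of that sum came from the a-cell genes, so it says little about stationary phase or meiosis. The a-cell genes MFA1, MFA2 and STE2 stood at 568 to 2788 FPKM and the alpha-cell genes MF(ALPHA)1, MF(ALPHA)2 and STE3 at 3.12 to 26.2 FPKM. The summed level of 5 stationary phase markers was 182 to 216 FPKM in ect1Δ pct1Δ, 169.7 to 197 in cpt1Δ ept1Δ and 163 to 176 in WT, and its part in the results was not tested. HSP26, a small heat shock protein gene among these 5, stood at 61.79, 55.83 and 61.03 FPKM in cpt1Δ ept1Δ (replicates 1, 2 and 3). In WT it stood at 41.63, 40.79 and 47.2 FPKM, below all cpt1Δ ept1Δ libraries. In the fit of all libraries it was not called in this comparison (edgeR, Benjamini-Hochberg adjusted p = 0.179). Without WT replicate 3 and ect1Δ pct1Δ replicate 2, HSP26 was called higher in cpt1Δ ept1Δ than in WT (edgeR, Benjamini-Hochberg adjusted p = 0.0347). It was the 1 marker of the 13 called there. The rest of these 5 overlapped between cpt1Δ ept1Δ and WT (replicates 1, 2 and 3). HSP12 stood at 31.55, 28.56 and 34.99 FPKM against 18.82, 30.44 and 27.13, and GRE1 at 6.85, 6.84 and 7.94 against 8.11, 4.09 and 4.82. SPI1 stood at 30.26, 31.63 and 34.84 FPKM against 34.32, 44.94 and 30.96, and SNZ1 at 60.11, 46.84 and 58.03 against 60.07, 56.0 and 62.46.

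The flippase machinery was expressed in every library and its RNA levels were close to WT in both deletion strains. LEM3 was the most abundant transcript of the set and KIN82 the least, and the order of the genes was nearly the same in all libraries. By edgeR's quasi-likelihood test with Benjamini-Hochberg adjustment over 6083 genes, 0 of 9 genes passed an adjusted p of 0.05 in ect1Δ pct1Δ against WT, where 0.46% of all genes were called. Likewise 0 of 9 passed in cpt1Δ ept1Δ against WT (0.132% of all genes called) and 0 of 9 between cpt1Δ ept1Δ and ect1Δ pct1Δ (0.197% of all genes called). None of the 27 values had an unadjusted p below 0.05, which 6.61%, 5.28% and 4.72% of all genes had in these 3 comparisons in the same order. DESeq2 and limma called 0 as well, and the smallest edgeR Benjamini-Hochberg adjusted p was 0.932. Non-overlapping libraries were seen for 0, 1 and 1 of the 9 genes, against 10.6%, 10.4% and 10.3% of all tested genes. In such bulk samples fewer cells of a kind and less RNA per cell cannot be told apart.

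**Figure D1:**
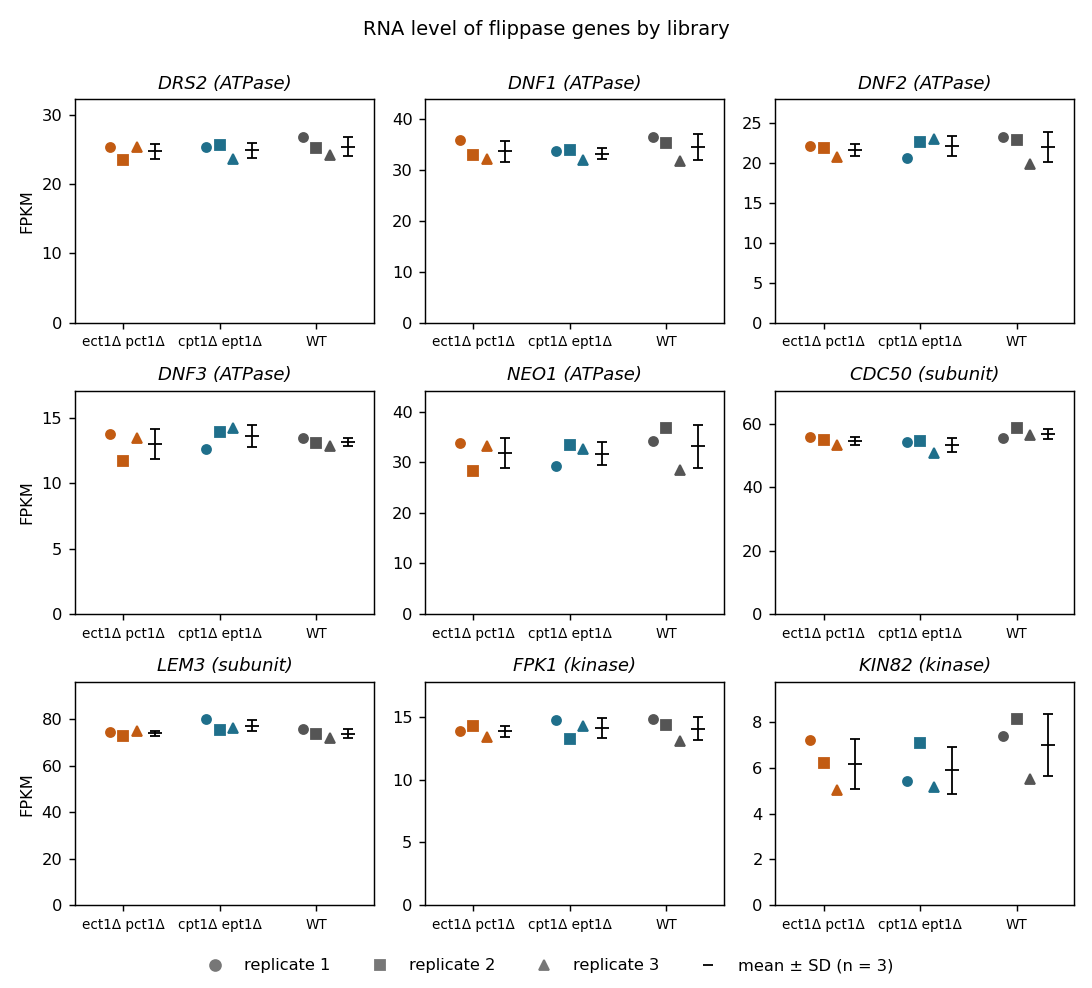
RNA level in FPKM (vertical axis, from 0) of each of the 9 genes in ect1Δ pct1Δ, cpt1Δ ept1Δ and WT libraries; markers are libraries by replicate number and the black bars are mean ± SD (n = 3). The groups overlap in all panels except that the cpt1Δ ept1Δ points lie below WT for CDC50 and above ect1Δ pct1Δ for LEM3; KIN82 spreads most, between 5.05 and 8.11 FPKM.

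DRS2 (YAL026C, chromosome I, 95630 to 99697) encodes the flippase of the trans-Golgi network that moves phosphatidylserine and phosphatidylethanolamine. It stood at 25.3, 23.5 and 25.4 FPKM in ect1Δ pct1Δ, 25.4, 25.6 and 23.6 FPKM in cpt1Δ ept1Δ and 26.8, 25.2 and 24.1 FPKM in WT (replicates 1, 2 and 3, as in all such lists). The groups overlapped. The edgeR log2 fold change was -0.05 ± 0.06 (SE) in ect1Δ pct1Δ and -0.03 ± 0.06 in cpt1Δ ept1Δ, with 95% intervals from -0.19 to 0.08 and from -0.16 to 0.09. DRS2 overlaps the antisense noncoding gene HRA1 over 393 bases and the dubious reading frame YAL026C-A over 194 bases. The sources used here do not say whether counting used strand. These had 10 to 39 and 35 to 77 counts per library, against 586 to 1195 for DRS2. Reads in an overlap may have been counted for neither gene, so these counts do not show how many reads DRS2 lost.

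DNF1 (YER166W, chromosome V, 512744 to 517459) and DNF2 (YDR093W, chromosome IV, 631282 to 636120) encode the main flippases of the plasma membrane, which also move phosphatidylcholine. DNF1 stood at 35.95, 32.9 and 32.2 FPKM in ect1Δ pct1Δ, 33.8, 34.0 and 31.9 FPKM in cpt1Δ ept1Δ and 36.5, 35.3 and 31.7 FPKM in WT. DNF2 stood at 22.2, 22.0 and 20.7 FPKM in ect1Δ pct1Δ, 20.7, 22.6 and 23.1 FPKM in cpt1Δ ept1Δ and 23.3, 22.9 and 19.9 FPKM in WT. In FPKM WT replicate 1 was the highest and WT replicate 3 the lowest of all 9 libraries for both genes. The spread within WT thus covered both deletion strains in FPKM. In TMM-scaled CPM (counts scaled to library total with the factors of the tests) this held for neither gene. There DNF1 was lowest in ect1Δ pct1Δ replicate 3 (150.2, against 152.3 in WT replicate 3). DNF2 was highest in cpt1Δ ept1Δ replicate 3 (113.2, against 112.1 in WT replicate 1). The groups overlapped there too. The edgeR log2 fold changes were -0.05 ± 0.06 and -0.03 ± 0.07 in ect1Δ pct1Δ for DNF1 and DNF2, and -0.06 ± 0.06 and 0.01 ± 0.07 in cpt1Δ ept1Δ. DNF1 overlaps YER165C-A over 240 bases on the opposite strand. DNF2 overlaps YDR094W over 281 bases on its own strand, besides 4 bases of YDR095C on the opposite strand (at most 4 counts). The genes of the larger overlaps had at most 47 and 30 counts per library, where DNF1 and DNF2 had at least 860 and 569. As for DRS2, such counts do not show how many reads an overlap cost DNF1 or DNF2.

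DNF3 (YMR162C, chromosome XIII, 578951 to 583921) encodes a further flippase of the trans-Golgi network. It stood at 13.8, 11.7 and 13.5 FPKM in ect1Δ pct1Δ, 12.6, 13.95 and 14.2 FPKM in cpt1Δ ept1Δ and 13.5, 13.1 and 12.9 FPKM in WT. The highest and the lowest library both belonged to deletion strains, and the groups overlapped. On the log2 scale edgeR gave a fold change of -0.04 ± 0.08 in ect1Δ pct1Δ and 0.05 ± 0.07 in cpt1Δ ept1Δ.

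NEO1 (YIL048W, chromosome IX, 261437 to 264892) encodes the essential P4-ATPase of the Golgi and endosomes. It stood at 33.9, 28.4 and 33.2 FPKM in ect1Δ pct1Δ, 29.2, 33.4 and 32.6 FPKM in cpt1Δ ept1Δ and 34.3, 36.8 and 28.5 FPKM in WT. Its lowest values were those of ect1Δ pct1Δ replicate 2 and WT replicate 3, which also had the highest scores on the leading principal component. NEO1 varied most among the P4-ATPases, with a coefficient of variation of 9.04% over the 9 libraries against 3.36% from counting error. By edgeR the log2 fold changes were -0.08 ± 0.08 in ect1Δ pct1Δ and -0.06 ± 0.08 in cpt1Δ ept1Δ. Single libraries moved the value in ect1Δ pct1Δ: it was -0.17 without WT replicate 3 (Benjamini-Hochberg adjusted p by edgeR of 0.426, the lowest of its alternatives), -0.12 without ect1Δ pct1Δ replicate 1, and -0.011 without ect1Δ pct1Δ replicate 2 or without WT replicate 2. Without both WT replicate 3 and ect1Δ pct1Δ replicate 2 it was -0.09.

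The 5 P4-ATPases together summed to 131, 118 and 125 FPKM in ect1Δ pct1Δ, 122, 129.6 and 125 FPKM in cpt1Δ ept1Δ and 134, 133 and 117 FPKM in WT. The sums overlapped between all groups, and the lowest were again those of WT replicate 3 and ect1Δ pct1Δ replicate 2.

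CDC50 (YCR094W, chromosome III, 286762 to 287937) encodes the subunit that Drs2 needs to leave the endoplasmic reticulum and to work. It stood at 55.9, 54.9 and 53.4 FPKM in ect1Δ pct1Δ, 54.4, 54.7 and 50.9 FPKM in cpt1Δ ept1Δ and 55.6, 58.7 and 56.4 FPKM in WT. All cpt1Δ ept1Δ libraries lay below all WT libraries, which held for 5.19% of all tested genes in this comparison. Its difference, by edgeR, was a log2 fold change of -0.09 ± 0.06, with a 95% interval from -0.23 to 0.04 and a Benjamini-Hochberg adjusted p of 0.9995. In ect1Δ pct1Δ it was -0.06 ± 0.07.

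LEM3 (YNL323W, chromosome XIV, 31944 to 33188) encodes the subunit of Dnf1 and Dnf2. It stood at 74.4, 72.7 and 74.8 FPKM in ect1Δ pct1Δ, 80.0, 75.6 and 76.4 FPKM in cpt1Δ ept1Δ and 75.9, 73.6 and 71.9 FPKM in WT. The cpt1Δ ept1Δ libraries lay above those of ect1Δ pct1Δ, as for 4.75% of all tested genes, but overlapped WT. The edgeR log2 fold change of cpt1Δ ept1Δ over ect1Δ pct1Δ was 0.07 ± 0.06, with a 95% interval from -0.05 to 0.20 and a Benjamini-Hochberg adjusted p of 0.9994. Against WT the values were -0.01 ± 0.06 in ect1Δ pct1Δ and 0.06 ± 0.06 in cpt1Δ ept1Δ. LEM3 was the steadiest gene of the set: its coefficient of variation over the 9 libraries was 3.17%, within the 3.67% that counting error alone gives, and lower than in all but 3.945% of the tested genes. LEM3 lies on the chromosome of the deleted CPT1, 346369 bases away.

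FPK1 (YNR047W, chromosome XIV, 708523 to 711204) encodes the main activating kinase of Dnf1 and Dnf2. It stood at 13.9, 14.2 and 13.4 FPKM in ect1Δ pct1Δ, 14.8, 13.2 and 14.3 FPKM in cpt1Δ ept1Δ and 14.8, 14.3 and 13.1 FPKM in WT. The groups overlapped, with edgeR log2 fold changes of -0.03 ± 0.09 in ect1Δ pct1Δ and -0.0016 ± 0.086 in cpt1Δ ept1Δ. KIN82 (YCR091W, chromosome III, 274404 to 276566) encodes the paralog of Fpk1.

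KIN82 stood at 7.22, 6.19 and 5.05 FPKM in ect1Δ pct1Δ, 5.42, 7.07 and 5.18 FPKM in cpt1Δ ept1Δ and 7.39, 8.11 and 5.49 FPKM in WT. Each group held libraries near 5 FPKM and libraries above 7 FPKM, so the groups overlapped. KIN82 had the largest point estimates of the set, with edgeR log2 fold changes of -0.19 ± 0.17 in ect1Δ pct1Δ and -0.25 ± 0.17 in cpt1Δ ept1Δ and 95% intervals from -0.55 to 0.17 and from -0.60 to 0.10. It rested on only 62 to 175 counts per library. Counting error alone gives it a coefficient of variation of 9.71%, and 17.7% was measured.

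The 95% intervals bound how large a difference these libraries leave room for. All 27 intervals included 0. For the 8 genes other than KIN82 they lay between -0.26 and 0.24 on the log2 scale in all 3 comparisons, or between 0.836-fold and 1.18-fold. For KIN82 they reached 0.66-fold. In ect1Δ pct1Δ 9 of 9 log2 fold changes were negative, with a median of -0.05 against 0.0026 over all tested genes, of which 48.8% were negative; with limma on FPKM 8 of 9 were negative, LEM3 being positive. Without WT replicate 1 only 6 of 9 were negative, with a median of -0.015, and without WT replicate 3 the median was -0.08. In cpt1Δ ept1Δ 6 of 9 were negative (5 with limma on FPKM), with a median of -0.03 against -0.0018 over all tested genes, of which 50.8% were negative. Without WT replicate 1 or WT replicate 2 only 4 of 9 were negative and the median turned positive (0.0029 and 0.0039); without cpt1Δ ept1Δ replicate 2 it was -0.053 and without WT replicate 3 -0.060. Between cpt1Δ ept1Δ and ect1Δ pct1Δ 3 of 9 were negative, against 51.6% of all. That count was 1 without ect1Δ pct1Δ replicate 1, 2 without cpt1Δ ept1Δ replicate 3, and 5 without ect1Δ pct1Δ replicate 2 or cpt1Δ ept1Δ replicate 2, where the median turned negative (-0.0065 and -0.00012). The comparisons against WT share the WT libraries, WT replicate 1 among them. In FPKM WT replicate 1 was the highest library for DRS2, DNF1, DNF2 and FPK1. In TMM-scaled CPM it was the highest for DRS2 and DNF1, but not for DNF2 and FPK1.

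**Figure D2:**
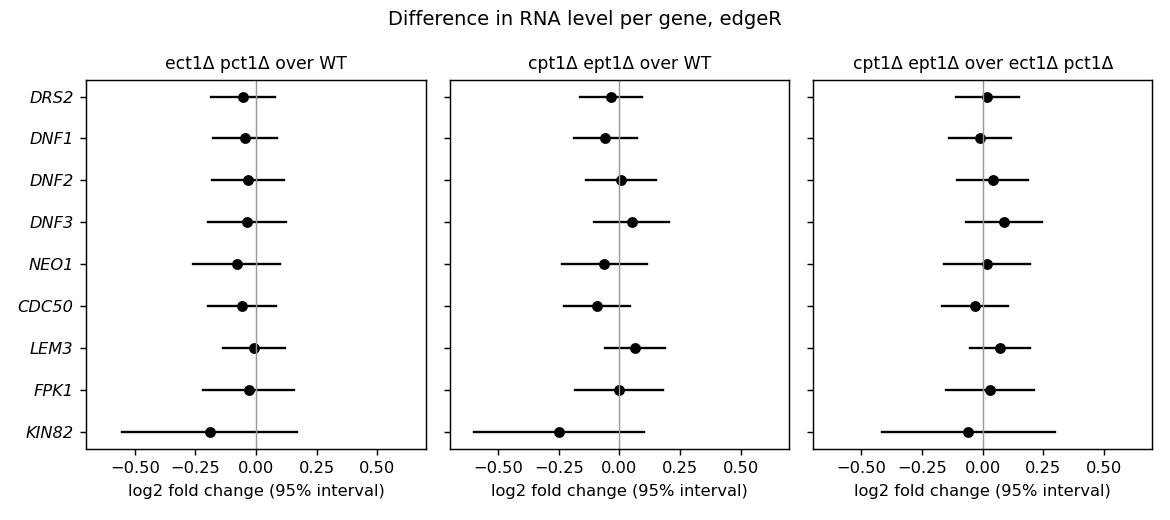
Log2 fold change (points) with its 95% interval (lines) from edgeR for each of the 9 genes, in ect1Δ pct1Δ over WT, cpt1Δ ept1Δ over WT and cpt1Δ ept1Δ over ect1Δ pct1Δ. All 27 intervals cross the line at 0, and KIN82 has the widest.

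Levels per length fell into a steady order. Averaged over all 9 libraries, LEM3 stood at 75.0 ± 2.38 FPKM (SD, n = 9 here), CDC50 at 55.0 ± 2.15, DNF1 at 33.8 ± 1.81, NEO1 at 32.3 ± 2.92, DRS2 at 24.99 ± 1.08, DNF2 at 21.9 ± 1.23, FPK1 at 13.99 ± 0.649, DNF3 at 13.25 ± 0.77 and KIN82 at 6.35 ± 1.13. Most neighbours in this order did not overlap in any library. The exceptions were DNF1 above NEO1, which held in 6 of 9 libraries, and FPK1 above DNF3, which held in 7 of 9, so that these levels did not differ beyond their spread. Among all tested genes LEM3 stood above 67.0% and KIN82 above 7.5% by mean FPKM, so the set spans low to moderate expression.

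Transcripts of the subunits were more abundant per length than those of the ATPases they pair with, in all groups alike. The subunit genes are 1176 to 1245 bases long and these ATPase genes 4068 to 4971. Whether uneven read coverage along the longer transcripts, or reads lost where genes overlap, plays a part in the ratios or the order of levels was not tested. The ratio of CDC50 to DRS2 was 2.22 ± 0.116 in ect1Δ pct1Δ, 2.15 ± 0.014 in cpt1Δ ept1Δ and 2.25 ± 0.15 in WT (SD, n = 3 in each). The ratio of LEM3 to the sum of DNF1 and DNF2 was 1.34 ± 0.0685 in ect1Δ pct1Δ, 1.40 ± 0.0668 in cpt1Δ ept1Δ and 1.31 ± 0.0744 in WT. All of these groups overlapped.

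The third subunit gene, YNR048W (chromosome XIV, 711630 to 712811), starts 425 bases after FPK1 ends. It had the largest positive difference among the genes that pair with the set: it stood at 31.4, 33.4 and 34.6 FPKM in ect1Δ pct1Δ, 31.5, 32.95 and 32.6 FPKM in cpt1Δ ept1Δ and 31.8, 27.9 and 26.9 FPKM in WT. The edgeR log2 fold changes of 0.18 ± 0.09 and 0.16 ± 0.09 in ect1Δ pct1Δ and cpt1Δ ept1Δ did not pass, with Benjamini-Hochberg adjusted p-values of 0.781 and 0.990. Both deletion strains overlapped WT through WT replicate 1. The ratio of YNR048W to DNF3 was 2.56 ± 0.29 in ect1Δ pct1Δ, 2.38 ± 0.102 in cpt1Δ ept1Δ and 2.19 ± 0.144 in WT, and these also overlapped.

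Between paralogs, DNF1 exceeded DNF2 by a ratio of 1.55 ± 0.062 in ect1Δ pct1Δ, 1.51 ± 0.127 in cpt1Δ ept1Δ and 1.57 ± 0.0266 in WT. FPK1 exceeded KIN82 by 2.29 ± 0.361, 2.45 ± 0.503 and 2.05 ± 0.308 in ect1Δ pct1Δ, cpt1Δ ept1Δ and WT. Both ratios overlapped between all 3 groups.

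**Figure D3:**
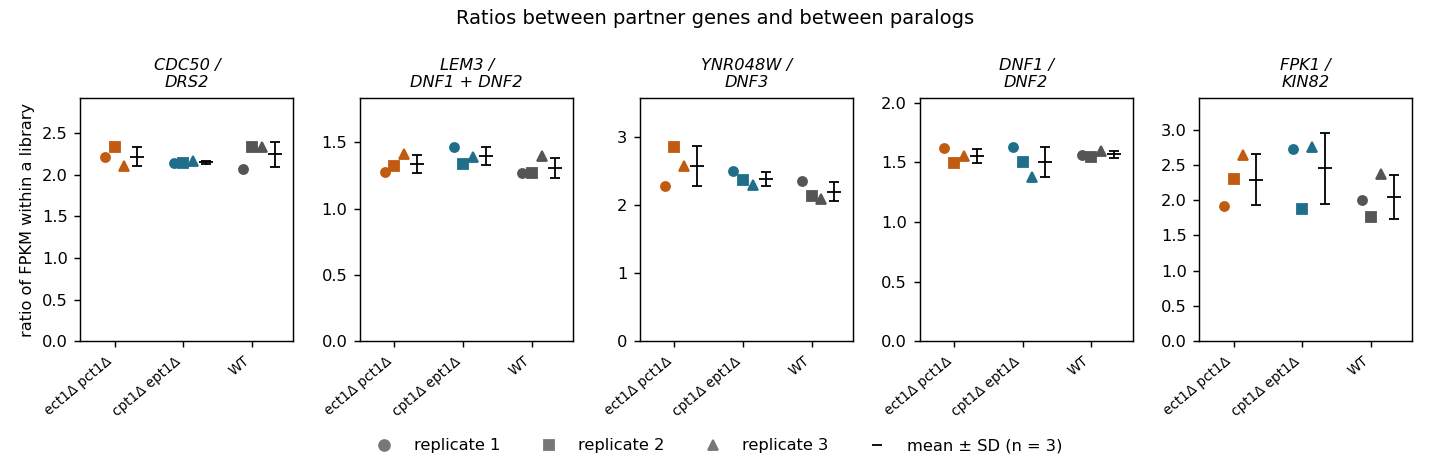
Ratios of FPKM within a library (vertical axis, from 0) for each subunit over its ATPase or ATPases and for each pair of paralogs, by group; markers are libraries by replicate number and the black bars are mean ± SD (n = 3). The groups overlap in every panel, and all 9 libraries have more of the subunit than of its partner.

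Correlations between partner genes were weak. On log2 CPM over the 9 libraries, which share group and depth differences, Pearson's r was 0.15 for DRS2 with CDC50, -0.10 for DNF1 with LEM3, 0.0048 for DNF2 with LEM3, 0.05 for DNF3 with YNR048W and 0.11 for FPK1 with KIN82. It was 0.61 for DRS2 with DNF1 and 0.48 for DNF1 with DNF2. CDC50, LEM3 and FPK1 varied no more over the 9 libraries than counting error alone gives. Their coefficients of variation were 3.91%, 3.17% and 4.64%, against 4.40%, 3.67% and 5.80% from counting. For pairs with these genes a weak r therefore cannot show whether the partners vary together. The genes with the most similar pattern over the 9 libraries were RTT107 for DRS2 (r = 0.97), NPR1 for DNF1 (0.95), YHL017W for DNF2 (0.94), RUP1 for DNF3 (0.87), FRE8 for NEO1 (0.98), OSW7 for CDC50 (0.90), MRX9 for LEM3 (0.94), YOR376W for FPK1 (0.97) and NUP42 for KIN82 (0.92). The 100th most similar gene still reached r of 0.67 to 0.86, so these are descriptions of 9 libraries only.

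The 300 bases before each start codon were searched on both strands for the 6-letter cores of sites that lipid and drug resistance regulators use. CATGTG, the core of the site bound by Ino2 and Ino4, the activators of phospholipid synthesis genes, was found in 0 of 9 of these windows and in 7.15% of 5976 windows of the same length. CCGCGG, the core of the site bound by Pdr1 and Pdr3, was found in 0 of 9 windows and in 1.34% of all. These letters being absent from a window says nothing about the factors.

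For genes that work with flippases, edgeR log2 fold changes ran from -0.19 to 0.18 in ect1Δ pct1Δ and from -0.12 to 0.16 in cpt1Δ ept1Δ. Of 17 partners and regulators, among them the Cdc50-family gene YNR048W, the kinases that act upstream and the Golgi partners of Drs2 and Neo1, 0 were called in any comparison by edgeR, DESeq2 or limma. In ect1Δ pct1Δ 2 of the 17 had an unadjusted p below 0.05, against 6.61% of all tested genes, and the median log2 fold change was -0.03. In cpt1Δ ept1Δ 0 did and the median was -0.02, and between the deletion strains 0 did. ANY1 (YMR010W, chromosome XIII, 285100 to 286317), whose loss is known to let yeast live without Neo1, stood at 78.6, 70.7 and 74.3 FPKM in ect1Δ pct1Δ, 79.6, 75.3 and 77.6 FPKM in cpt1Δ ept1Δ and 85.9, 82.3 and 84.6 FPKM in WT. All libraries of both deletion strains lay below all WT libraries, which held for 4.67% and 5.19% of all tested genes. The edgeR log2 fold changes were -0.19 ± 0.06 and -0.12 ± 0.06 in ect1Δ pct1Δ and cpt1Δ ept1Δ, with Benjamini-Hochberg adjusted p-values of 0.389 and 0.948, so neither passed. GEA2, an exchange factor for Arf proteins that binds Drs2, had log2 fold changes of -0.15 ± 0.07 and -0.08 ± 0.07 in the same comparisons.

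Among 20 genes of traffic at the trans-Golgi and endosomes, where Drs2 and Dnf3 work, 0 were called in any comparison by edgeR, DESeq2 or limma. An unadjusted p below 0.05 was found for 0 against WT and for 1, ATG20, between the deletion strains, against 4.72% of all tested genes there. GEA1, the paralog of GEA2, had an edgeR log2 fold change of -0.08 ± 0.06 in ect1Δ pct1Δ and YPT31, a Rab GTPase of Golgi exit, one of 0.09 ± 0.07 in cpt1Δ ept1Δ. ATG20, a sorting nexin, averaged 18.03 ± 0.448 FPKM in cpt1Δ ept1Δ and 20.5 ± 0.737 FPKM in ect1Δ pct1Δ (SD, n = 3 each), with all libraries lower in cpt1Δ ept1Δ, as for 5.59% of all tested genes. Its log2 fold change between them was -0.18 ± 0.08 (edgeR, Benjamini-Hochberg adjusted p = 0.9994). Of 10 other P-type ATPases, members of the same superfamily, 8 were tested and 0 were called by the same tools. In ect1Δ pct1Δ 1 of the 8 had an unadjusted p below 0.05, against 6.61% of all tested genes, and 0 did in the other comparisons. SPF1, the P5-type ATPase of the endoplasmic reticulum, had an edgeR log2 fold change of -0.13 ± 0.05 in ect1Δ pct1Δ with an unadjusted p of 0.0331. PMR1, the Golgi calcium and manganese pump, had one of -0.08 ± 0.05, and CCC2, the copper pump, one of 0.03 ± 0.11.

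ABC transporters, some of which move lipids outward against the flippases, were listed together with the activators PDR1 and PDR3, which are not transporters. This list held the single called gene of all these lists. PDR5, a drug exporter of the plasma membrane, fell to 41.6 ± 2.54 FPKM in ect1Δ pct1Δ, against 51.55 ± 4.84 FPKM in WT (SD, n = 3 each), with an edgeR log2 fold change of -0.32 ± 0.07 and a Benjamini-Hochberg adjusted p of 0.0322. Of 17 alternatives 7 ended the call: a fit of only the WT and ect1Δ pct1Δ libraries, leaving out ect1Δ pct1Δ replicate 2 or 3, cpt1Δ ept1Δ replicate 2 or WT replicate 1, and limma on FPKM at both pseudocounts (Benjamini-Hochberg adjusted p of up to 0.249). In cpt1Δ ept1Δ its log2 fold change was -0.08 ± 0.06, and that between cpt1Δ ept1Δ and ect1Δ pct1Δ was 0.24 ± 0.07 (Benjamini-Hochberg adjusted p by edgeR of 0.337). Of the 12 listed genes 11 were tested, and in ect1Δ pct1Δ 1 of these was called, against 0.46% of all tested genes. There 10 log2 fold changes were negative with a median of -0.09, against 48.8% negative of all tested genes. An unadjusted p below 0.05 was found for 4 of the 11 in ect1Δ pct1Δ, 1 in cpt1Δ ept1Δ and 2 between the deletion strains. Of all tested genes 6.61%, 5.28% and 4.72% had one in these comparisons. PDR12, a weak acid exporter, was the positive one, at 0.34 ± 0.10 (edgeR, Benjamini-Hochberg adjusted p = 0.330), and passed only when ect1Δ pct1Δ replicate 2 was left out, alone (0.02455) or together with WT replicate 3 (0.0366). Without ect1Δ pct1Δ replicate 1 its value was 0.19, with an adjusted p of 0.699. AUS1, a sterol importer, stood at -0.25 ± 0.09 (edgeR, Benjamini-Hochberg adjusted p = 0.453).

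Of 10 genes of the TORC2 branch, the kinase complex whose substrate Ypk1 restrains Fpk1, 0 were called by edgeR, DESeq2 or limma in any comparison. In ect1Δ pct1Δ 1 of the 10 had an unadjusted p below 0.05, against 6.61% of all tested genes, and 0 did elsewhere. SLM2, a TORC2 partner at the plasma membrane, stood at 31.4, 30.8 and 29.1 FPKM in ect1Δ pct1Δ, 29.7, 27.8 and 27.0 FPKM in cpt1Δ ept1Δ and 26.7, 26.9 and 24.45 FPKM in WT. Both deletion strains lay above WT in all libraries, as for 5.92% and 5.24% of all tested genes, but the edgeR log2 fold changes of 0.22 ± 0.07 and 0.11 ± 0.07 had Benjamini-Hochberg adjusted p-values of 0.408 and 0.9995. Its paralog SLM1 had log2 fold changes of 0.10 ± 0.07 and -0.004 ± 0.07, and ORM1, an inhibitor of sphingolipid synthesis, 0.09 ± 0.09 and 0.12 ± 0.09, in ect1Δ pct1Δ and cpt1Δ ept1Δ.

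**Figure D4:**
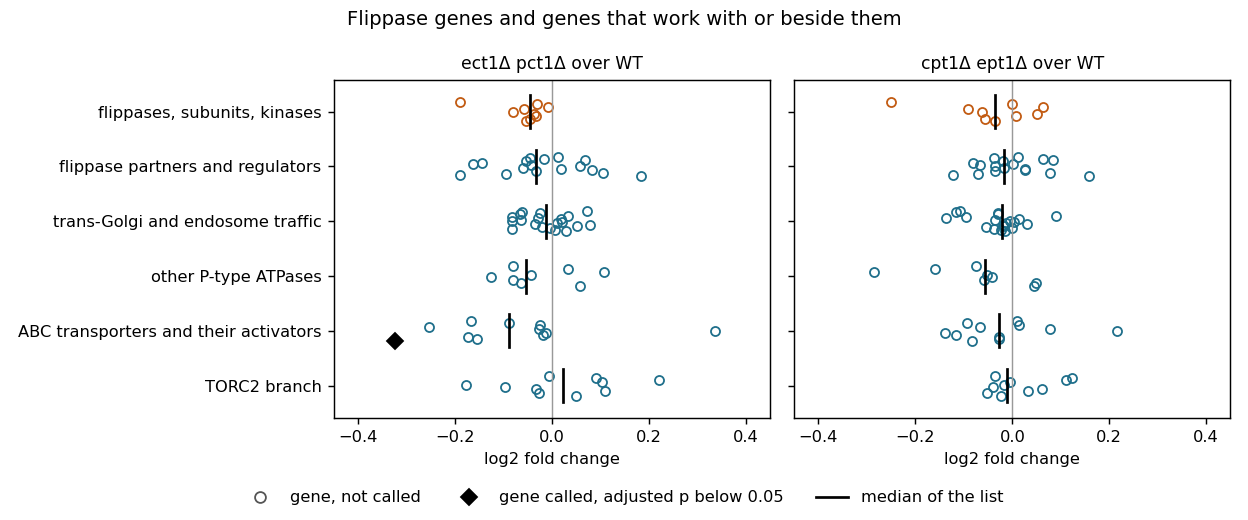
Log2 fold changes from edgeR in ect1Δ pct1Δ over WT and cpt1Δ ept1Δ over WT for the 9 flippase genes and 5 lists of related genes; each circle is a gene, the filled diamond is PDR5, the called gene, and the vertical bars are medians. Medians lie between -0.09 and 0.02, and the flippase genes other than KIN82 lie within 0.10 of 0.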

How the data were processed

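For every gene and library the authors deposited whole-number counts and FPKM, per the file headers. Per the submitters' processing notes, which give no roles, the tools named are HTSeq 0.6.1 and HISAT2 2.2.1 and the build is R64. Strand use and the treatment of multiply matching reads: not given in the sources used here. Deposited FPKM equals the count scaled to gene length and library total in 99.9% of 64098 values (within 0.0051 or a relative 0.002). The table holds 6 further value columns that match no sample and were not used, and 4 of its lines were emptied.

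Genes were tested with edgeR 4.0.16 (R 4.3.3; glmQLFit, glmQLFTest) with TMM factors and filterByExpr, which left 6083 genes, in 1 fit of all 9 libraries with a mean per group. Calls use a Benjamini-Hochberg adjusted p below 0.05 over all tested genes. Standard errors (SE) are the log2 fold change divided by the square root of F, without sign, and 95% intervals use the t quantile. The code was tested on simulated counts. Alternatives used DESeq2 1.42.0, limma 3.58.1 on log2(FPKM + 1) and log2(FPKM + 0.1), RLE factors, no filter, fewer libraries and a replicate block. At 3 against 3 libraries the smallest two-sided p of an exact permutation test is 0.1, so none was run. FPKM is used for levels and ratios only, and intervals rest on the spread between libraries.

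The genes of the set and the lists were chosen with earlier results of these data known. Genes outside the set are named where they overlap a member, are called in a list, have one of the 3 smallest p-values of a list other than the marker list over the 3 comparisons, or are most alike a member in pattern. Deleted genes and markers are named as checks on the labels. HSP26 and the other stationary phase markers were named after their values were seen. The lists' entry for the Cdc50-family gene also known as CRF1 was matched by its identifier YNR048W, since the file gives the symbol CRF1 to an unrelated gene, and ANY1 was matched through the RefSeq table. Of 7122 identifiers, 6045 were found in RefSeq's R64 annotation and 6033 had the same start and end, the 9 genes of the set among them. The ratios, sums, pair correlations and searched cores are not in the plan and were chosen after the values could be seen.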

Additional observations from a re-analysis of the deposited data

Results flagged for a closer look

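ATG20, a sorting nexin gene, was marked because every cpt1Δ ept1Δ library lay below the WT mean and every ect1Δ pct1Δ library above it. Its log2 fold change of cpt1Δ ept1Δ over ect1Δ pct1Δ was -0.18 (-0.1795 before rounding), which edgeR did not call. None of the 9 flippase, subunit and kinase genes met this condition.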

How the results depend on the processing

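The count of flippase, subunit and kinase genes called stayed at 0 of 9 in all 3 comparisons under all 17 alternatives, with a smallest Benjamini-Hochberg adjusted p of 0.378. In a single alternative at most 1, 2 and 0 of the 9 had an unadjusted p below 0.05 in ect1Δ pct1Δ, cpt1Δ ept1Δ and between these strains. The smallest by edgeR were 0.036 for KIN82 and 0.042 for NEO1 in cpt1Δ ept1Δ, without WT replicate 3 and ect1Δ pct1Δ replicate 2. NEO1 was at 0.047 by edgeR in ect1Δ pct1Δ without WT replicate 3. Log2 fold changes of the 9 genes ranged from -0.40 to 0.14 and, without KIN82, from -0.17 to 0.14. Replicate numbers did not pair the libraries (correlations of same-numbered deviations -0.27 to 0.26); with the replicate block 23, 7 and 11 genes were called against WT in ect1Δ pct1Δ, against WT in cpt1Δ ept1Δ and between the deletion strains, in place of 28, 8 and 12. In cpt1Δ ept1Δ against WT, DESeq2 called 17 genes. Without WT replicate 3 and ect1Δ pct1Δ replicate 2, an alternative chosen after seeing the data, 39, 16 and 23 genes were called. Leaving out single libraries gave 17 to 40 and 4 to 9 genes against WT in ect1Δ pct1Δ (17 without WT replicate 1) and cpt1Δ ept1Δ (4 without cpt1Δ ept1Δ replicate 2). Of 1224 values of single genes, 1168 kept their direction and side of the threshold; PDR5 lost its call in 7 and PDR12 gained one in 2. In 47 the sign turned, none of them a called value, and the cause was not tested. Under limma on log2(FPKM + 1) and log2(FPKM + 0.1), LEM3 was at 0.0025 and 0.0025 in ect1Δ pct1Δ, FPK1 at 0.0046 and 0.0049 in cpt1Δ ept1Δ, and NEO1 at -0.00048 and -0.00044 between the deletion strains; FPK1 was at 0.0031 with the replicate block in cpt1Δ ept1Δ. Without WT replicate 3 and ect1Δ pct1Δ replicate 2, DNF3 was at 0.024 in ect1Δ pct1Δ, DNF2 at -0.049 in cpt1Δ ept1Δ, and DRS2 and NEO1 at -0.0066 and -0.052 between the deletion strains. With single libraries left out, values in ect1Δ pct1Δ ran from -0.092 to 0.0067 for DNF2, -0.075 to 0.028 for DNF3, -0.019 to 0.0068 for LEM3, -0.073 to 0.0039 for FPK1, -0.014 to 0.086 for YPT31, -0.046 to 0.16 for CCC2 and -0.024 to 0.17 for ORM1. In cpt1Δ ept1Δ they ran from -0.060 to 0.0029 for DRS2, -0.049 to 0.052 for DNF2, -0.14 to 0.0065 for NEO1, -0.040 to 0.048 for FPK1, -0.027 to 0.020 for GEA1, -0.080 to 0.0024 for SPF1 and -0.031 to 0.032 for SLM1. Between cpt1Δ ept1Δ and ect1Δ pct1Δ they ran from -0.0065 to 0.049 for DRS2, -0.044 to 0.028 for DNF1, -0.053 to 0.075 for NEO1, -0.21 to 0.041 for KIN82, -0.0031 to 0.11 for GEA2, -0.24 to 0.030 for PDR12 and -0.047 to 0.15 for ORM1. With 62 to 175 counts, KIN82 is the gene whose precision depth limits most.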
